A study of Homo sapiens with 9 samples.

Results

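The genes of glucose uptake, glycolysis, lactate formation and export, pyruvate dehydrogenase kinases and glycogen were followed in ACHN, a human renal carcinoma cell line, exposed to piericidin A. They are a list of 33 genes, taken by symbol from the 18859 genes of the deposited log2 FPKM table, and each of the 33 symbols was found there. Of these, 31 had at least 0.5 FPKM in at least 3 libraries and entered the test of 15541 genes. The remaining pair, the brain-type aldolase ALDOC and the lactate exporter SLC16A3, was too low to be tested. Piericidin A is a natural inhibitor of complex I, the entry point of electrons from NADH into the respiratory chain. The series compared 3 groups of 3 RNA-seq libraries: 0.1% DMSO, 25 nM piericidin A and 50 nM piericidin A. All 3 groups are the same cell line, the labels name no genetic change, and they do not say whether the drug groups also held DMSO. Nor do the labels tell if replicate samples grew as separate cultures, and p-values therefore refer to sample-to-sample spread, which may be technical. How long treatment lasted is not given in the sources used here.

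Glycolysis splits glucose into pyruvate in the cytosol and yields ATP without oxygen. Lactate dehydrogenase then regenerates NAD+ by turning pyruvate into lactate, which monocarboxylate transporters carry out of the cell. Pyruvate dehydrogenase kinases hold pyruvate back from the citric acid cycle, and glycogen stores glucose units as a branched polymer. Many of these genes are classical targets of hypoxia-inducible factor (HIF), whose binding element has the core letters ACGTG or GCGTG. Most steps are served by paralogs, related genes for the same reaction. Clear cell renal carcinoma is known for high expression of several of these genes, and the sample titles do not name a subtype for ACHN.

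The promoters of 5 members are shown because 4 of them belong to genes that fell at both doses and each hold 3 separate stretches with the HIF core. The fifth, of LDHB, holds none and belongs to the gene that took a growing share of its family. Each run is the 250 bases before the start of the gene in RefSeq on GRCh38.p14, written 5′ to 3′ on the strand of the gene. Capitals mark ACGTG or GCGTG on either strand, so that CACGT and CACGC mark the core on the other strand, with overlapping matches joined.
PPP1R3C, chr10:91633072-91633321, minus strand: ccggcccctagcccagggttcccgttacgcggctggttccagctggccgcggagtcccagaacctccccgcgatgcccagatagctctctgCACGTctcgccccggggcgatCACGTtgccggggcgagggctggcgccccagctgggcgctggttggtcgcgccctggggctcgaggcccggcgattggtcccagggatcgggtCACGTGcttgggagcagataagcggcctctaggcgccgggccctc
HK2, chr2:74833877-74834126, plus strand: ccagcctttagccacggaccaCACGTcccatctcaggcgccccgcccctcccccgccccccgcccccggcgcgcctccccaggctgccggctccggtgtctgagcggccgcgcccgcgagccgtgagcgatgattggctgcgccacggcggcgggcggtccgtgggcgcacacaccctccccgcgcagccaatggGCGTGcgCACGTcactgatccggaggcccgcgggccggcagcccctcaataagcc
LDHA, chr11:18394313-18394562, plus strand: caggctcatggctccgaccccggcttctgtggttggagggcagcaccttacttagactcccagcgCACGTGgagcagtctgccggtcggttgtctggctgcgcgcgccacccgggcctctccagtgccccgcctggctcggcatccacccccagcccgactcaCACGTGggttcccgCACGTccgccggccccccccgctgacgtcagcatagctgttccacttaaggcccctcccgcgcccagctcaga
PGK1, chrX:78103998-78104247, plus strand: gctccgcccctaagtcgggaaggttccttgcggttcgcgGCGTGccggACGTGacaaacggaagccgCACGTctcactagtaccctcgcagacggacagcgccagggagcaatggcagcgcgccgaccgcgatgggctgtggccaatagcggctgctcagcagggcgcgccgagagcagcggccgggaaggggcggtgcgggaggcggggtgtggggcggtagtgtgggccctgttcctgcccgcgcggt
LDHB, chr12:21657843-21658092, minus strand: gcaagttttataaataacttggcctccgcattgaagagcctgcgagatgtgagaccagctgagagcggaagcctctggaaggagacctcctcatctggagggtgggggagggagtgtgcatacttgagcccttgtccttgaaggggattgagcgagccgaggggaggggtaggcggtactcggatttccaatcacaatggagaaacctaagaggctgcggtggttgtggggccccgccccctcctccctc
RefSeq gave a promoter for 30 of the 33 members. The core was in 17 of these 30, or 56.7%, against 43.1% of all 27305 promoters of the table and 58.4% of the promoters of 9095 tested protein-coding genes. At least 2 separate stretches were in 9 of the 30, or 30.0%, against 16.3% and 25.5% in the same sets. The share of members with a core was therefore near that of tested genes. Over the 28 members with both a promoter and a test, the median log2 fold change of 50 nM against DMSO was -0.47 for the 12 with no stretch, -0.51 for the 8 with 1 and -0.84 for the 8 with 2 or more. The ranges overlapped broadly, from -0.95 to 0.04 with no stretch, from -0.96 to 0.07 with 1 and from -2.59 to -0.30 with 2 or more. SLC2A1 and PDK1 have no stretch and fell by 0.95 and 0.93. A match is a string of letters and not a measured binding site.

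Depth was 24365472 to 29245674 fragments per library, recovered from the deposited FPKM. All 10 markers listed for a renal epithelial carcinoma line were present, from 3.00 FPKM for KRT7 to 254 FPKM for VIM in DMSO. Of 10 markers of leukocytes, endothelium, fibroblasts, liver and lung, 2 were in the log2 table, COL1A1 at 1.72 FPKM and DCN at 0.15 FPKM in DMSO. The pair summed to 1.87 FPKM in DMSO, 2.06 FPKM at 25 nM and 3.09 FPKM at 50 nM, and the leukocyte markers PTPRC and CD3E were listed in no library. In bulk RNA, fewer cells of a type and less RNA per cell cannot be told apart. Replicate 3 at 25 nM stood apart from its group, with a chi-square per degree of freedom of 15.7 and 17.8 against the other 25 nM libraries, which differed from each other by 2.36. The same measure was 1.75 to 2.39 within DMSO and 4.77 to 7.88 within 50 nM. Mitochondrially encoded RNA averaged a share of 2.53% in DMSO libraries, 4.36% in 25 nM libraries and 5.93% in 50 nM libraries. Scaling by fragments outside the mitochondrial genome is given below as an alternative. The part of these shares in the results was not tested in another way.

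At 25 nM the list split: 6 of the 31 tested members rose and 16 fell against DMSO, 22 in all, where 52.0% of all genes changed. Of all 15541 genes 26.3% rose and 25.8% fell, which puts the falls among members, 51.6%, above the background and the rises, 6 of 31, close to it. Rises numbered 3 when either of DMSO replicates 2 and 3 was left out, and 3 under quantile normalization, where 22 members fell. Without replicate 3 at 25 nM, 5 members rose and 17 fell. At 50 nM, 26 of 31 members, or 83.9%, fell against DMSO, where 31.5% of all genes fell and 60.7% changed. None rose in the limma test at 50 nM, also at an unadjusted p under 0.05, against 29.2% of all genes. With scaling by total fragments BPGM and LDHB rose at 50 nM, and with scaling by non-mitochondrial fragments PFKM as well. PFKM also rose at 50 nM under quantile normalization and with the gene length trend removed, and BPGM without 50 nM replicate 3. Between the drug groups, 28 of 31 members, or 90.3%, were lower at 50 nM than at 25 nM, where 18.8% of all genes were lower and 33.5% changed. None was higher at 50 nM than at 25 nM, also at an unadjusted p under 0.05, against 14.7% of all genes.

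The median log2 fold change of the members was -0.19 at 25 nM against DMSO, -0.64 at 50 nM against DMSO and -0.45 at 50 nM against 25 nM. The medians of all tested genes were 0.02, 0.00 and -0.01 in the same comparisons. Falls of at least 0.5 on the log2 scale numbered 5 members at 25 nM, where the background was 10.3%, and 19 members at 50 nM, where it was 12.6%. Between 50 nM and 25 nM there were 10 such members, against 0.901% of all genes. Falls of at least 1 numbered 3 members at 25 nM, where the background was 1.67%, 3 at 50 nM, where it was 1.79%, and 1 between the drug groups, where it was 0.135%. At 25 nM the libraries of 19 members all lay below DMSO and those of 7 above, against 31.1% and 31.5% of all genes, or 62.6% in either direction. At 50 nM those of 26 lay below DMSO and of 0 above, against 36.5% and 33.9%, or 70.4% in either direction. Between the drug groups, the 50 nM libraries of 29 members lay below those at 25 nM and only PFKFB2 lay above, against 24.4% and 21.0%, or 45.4% in either direction. Both doses were set against the same 3 DMSO libraries, so the comparisons with DMSO are not independent of each other.

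**Figure D1:**
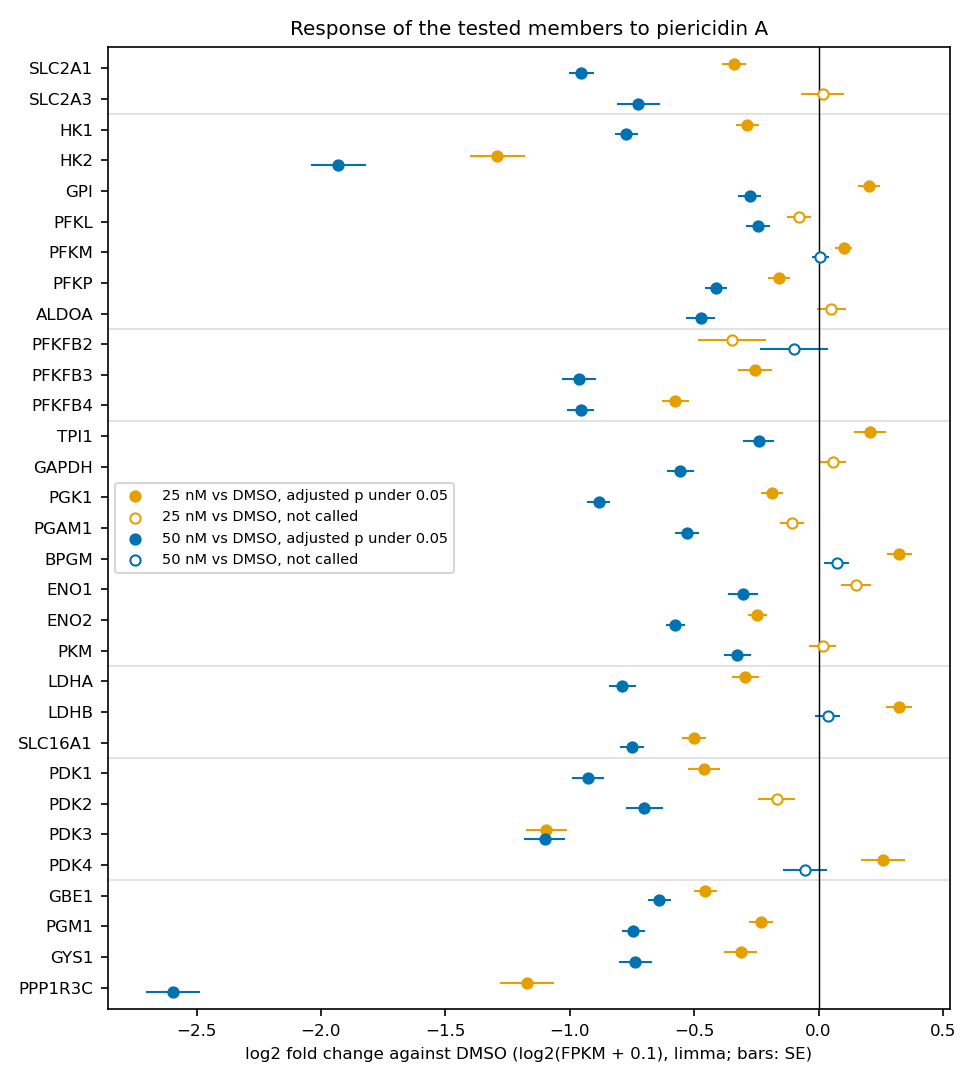
Log2 fold change on log2(FPKM + 0.1) against DMSO for the 31 tested members, grouped by role, at 25 nM and 50 nM, with bars for the SE of the limma fit and filled points for adjusted p under 0.05. Points at 50 nM lie left of those at 25 nM for all members except PFKFB2, and PPP1R3C and HK2 reach -2.59 and -1.93.

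A group of 15 members fell in all 3 comparisons, 48.4% of those tested, against 5.42% of all genes: SLC2A1, HK1, HK2, PFKP, PFKFB3, PFKFB4, PGK1, ENO2, LDHA, SLC16A1, PDK1, GBE1, PGM1, GYS1 and PPP1R3C. Of these 15, 11 kept all 3 calls under each of the 20 alternatives tried. PFKP, SLC16A1 and GBE1 lost the call between 50 nM and 25 nM under quantile normalization, GBE1 also under 3 others and SLC16A1 with non-mitochondrial scaling. PFKP lost its 25 nM call without DMSO replicate 1, and PDK1 with the gene length trend removed. Another 8 members passed no test at 25 nM but fell at 50 nM against either group, namely SLC2A3, PFKL, ALDOA, GAPDH, PGAM1, ENO1, PKM and PDK2. The call of PFKL between 50 nM and 25 nM, at -0.16, was lost under 8 of the 20 alternatives. Among these were both fragment scalings and quantile normalization. PGAM1 passed as a fall at 25 nM under 4 of the 20. GPI and TPI1 rose at 25 nM and fell at 50 nM against DMSO. In 17 members, every DMSO library lay above every 25 nM library, and these above every 50 nM library, an order that 8.18% of all tested genes had.

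The glucose transporters SLC2A1 and SLC2A3 both fell at the higher dose. SLC2A1 encodes GLUT1, the general glucose transporter of proliferating cells (chromosome 1, 42925375-42959173 on hg38 in the authors' table). It had 169, 159 and 158 FPKM in the DMSO libraries, 126, 127 and 131 FPKM at 25 nM and 79.6, 88.6 and 82.9 FPKM at 50 nM. The groups were fully separated and stepped down with dose. Its log2 fold change against DMSO was -0.34 ± 0.05 at 25 nM (SE; adjusted p = 0.000457) and -0.95 ± 0.05 at 50 nM (adjusted p = 1.17e-06). SLC2A3 encodes GLUT3, a high-affinity transporter best known from neurons, and had 33.6, 33.1 and 33.02 FPKM in DMSO, 36.1, 36.6 and 28.8 FPKM at 25 nM and 18.7, 20.8 and 20.7 FPKM at 50 nM. Replicate 3 at 25 nM lay below DMSO and the other 25 nM libraries above it. The value at 25 nM, 0.02, did not pass the test, and was 0.13 without that replicate. At 50 nM SLC2A3 fell by 0.73 (adjusted p = 0.000101). The FPKM of SLC2A1 and SLC2A3 together averaged 195 in DMSO, 162 at 25 nM and 104 at 50 nM.

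Hexokinases phosphorylate glucose and trap it in the cell. HK2, the inducible form that binds mitochondria, changed most among the enzymes of the glycolytic chain. HK2 (chromosome 2, 74833981-74893359) had 69.5, 66.7 and 67.3 FPKM in DMSO, 30.1, 31.2 and 22.5 FPKM at 25 nM and 16.5, 18.5 and 18.2 FPKM at 50 nM. The drug libraries lay far below every DMSO library, and replicate 3 at 25 nM was lowest of its group. The log2 fold change was -1.29 ± 0.11 at 25 nM (SE; adjusted p = 3.3e-05), or -1.14 without that replicate, and -1.93 ± 0.11 at 50 nM (adjusted p = 1.86e-06). The promoter printed for HK2 has 2 of its 3 stretches side by side, 55 and 48 bases before the start. HK1, the widely expressed form, had 59.1, 54.5 and 55.05 FPKM in DMSO, 44.9, 45.8 and 47.5 FPKM at 25 nM and 31.5, 33.7 and 33.3 FPKM at 50 nM. It fell in separated steps of a smaller size, by 0.29 at 25 nM and by 0.77 at 50 nM against DMSO. HK1 therefore held 45.3% of the summed FPKM of HK1 and HK2 in DMSO, 62.4% at 25 nM and 65.0% at 50 nM. The sum averaged 124 FPKM in DMSO, 74.0 FPKM at 25 nM and 50.6 FPKM at 50 nM. HKDC1, a hexokinase outside the list, is not in this sum and passed no test. It averaged 52.1 FPKM in DMSO, 50.8 FPKM at 25 nM and 51.6 FPKM at 50 nM.

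**Figure D2:**
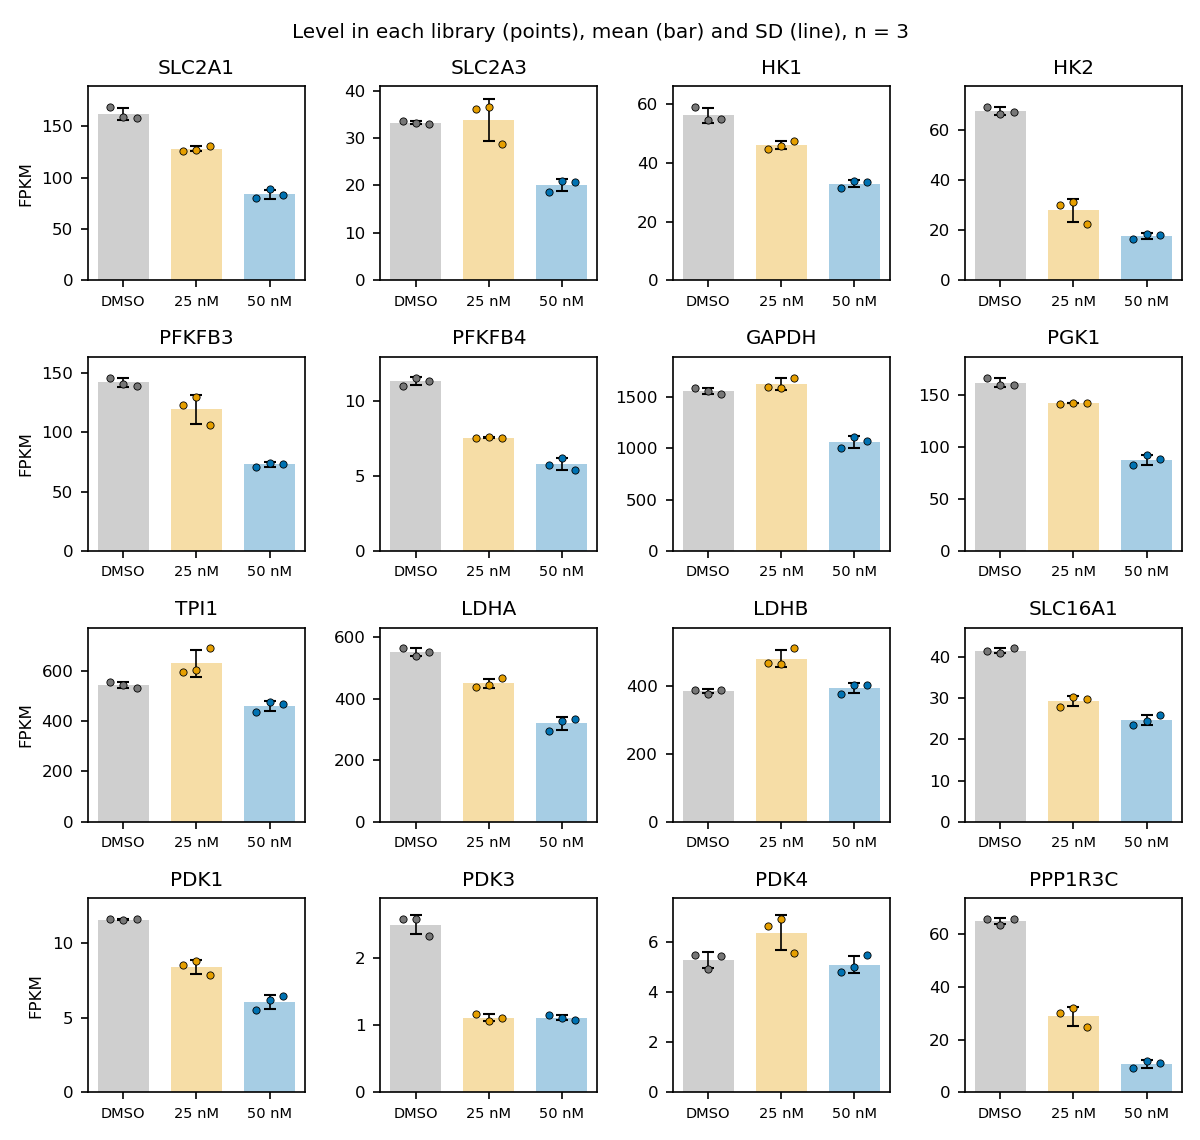
FPKM of 16 members (linear axes from 0) in DMSO, 25 nM and 50 nM, with 1 point per library, bars for group means and lines for the SD (n = 3). The levels of PPP1R3C and HK2 step down at each dose, and those of LDHB lie highest at 25 nM.

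The remaining enzymes of the upper, ATP-consuming steps had smaller fold changes than HK2. GPI interconverts glucose and fructose 6-phosphates, and had 37.0, 35.2 and 34.5 FPKM in DMSO, 40.6, 39.6 and 42.7 FPKM at 25 nM and 28.3, 30.3 and 29.5 FPKM at 50 nM. Its 25 nM libraries lay above all DMSO libraries and its 50 nM libraries below them, a rise of 0.20 (adjusted p = 0.00512) and a fall of 0.28 (adjusted p = 0.000697). With the gene length trend removed, the value at 50 nM was -0.13 and did not pass. Phosphofructokinase commits sugar to glycolysis, and its platelet-type subunit PFKP dominated here. PFKP had 129, 123 and 123 FPKM in DMSO, 111, 109.9 and 115 FPKM at 25 nM and 95.3, 97.2 and 89.5 FPKM at 50 nM. It fell in separated steps, by 0.16 at 25 nM and 0.41 at 50 nM. Without DMSO replicate 1 its value at 25 nM was -0.14 and missed the threshold (adjusted p = 0.0582). The liver-type PFKL had 25.7, 24.8 and 24.4 FPKM in DMSO, 23.8, 23.5 and 23.6 FPKM at 25 nM and 21.7, 21.95 and 19.6 FPKM at 50 nM. Its value at 25 nM, -0.08, did not pass the test, and it fell by 0.24 at 50 nM, a call lost with the gene length trend removed (-0.10) or scaling by non-mitochondrial fragments (-0.12). The muscle-type PFKM had 29.8, 29.2 and 29.4 FPKM in DMSO, 31.6, 30.6 and 32.5 FPKM at 25 nM and 29.5, 30.03 and 29.3 FPKM at 50 nM. It rose by 0.10 at 25 nM (adjusted p = 0.0394), a call lost under 13 of the 20 alternatives. Leaving out any single DMSO library, replicate 1 or 3 at 25 nM or replicate 2 at 50 nM gave adjusted p of 0.0544 to 0.12. Total-fragment scaling (0.07) and quantile normalization (0.04) also ended the call. SENP1 on the opposite strand overlaps PFKM and held 31.4% as many fragments in DMSO, and it is not known if the libraries keep strand. PFKP held 69.7% of the FPKM of the 3 subunits in DMSO, 67.0% at 25 nM and 65.0% at 50 nM. Fructose bisphosphate aldolase A, ALDOA, had 444, 429 and 415 FPKM in DMSO, 435, 425 and 476 FPKM at 25 nM and 297, 329 and 302 FPKM at 50 nM. Only the 50 nM group was set apart, with a fall of 0.47 (adjusted p = 0.000128). The other aldolase, ALDOC, had 0.114, 0.0255 and 0.0468 FPKM in DMSO, 0.0415, 0.106 and 0.0708 FPKM at 25 nM and 0.145, 0.158 and 0.0502 FPKM at 50 nM. At these levels, ALDOC also overlaps a gene on its own strand that holds more fragments, and no comparison was made.

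The bifunctional PFKFB enzymes make and degrade fructose 2,6-bisphosphate, the strongest activator of phosphofructokinase. PFKFB3, the form with the highest kinase activity, was nearly the whole family in these cells and fell strongly at 50 nM. It had 146, 141 and 139.5 FPKM in DMSO, 123, 129.9 and 106 FPKM at 25 nM and 70.9, 74.3 and 73.5 FPKM at 50 nM. Replicate 3 was lowest at 25 nM, where the log2 fold change was -0.25 with it and -0.17 without it. At 50 nM PFKFB3 had a log2 fold change of -0.96 ± 0.07 against DMSO (SE; adjusted p = 5.02e-06). PFKFB4, a hypoxia-inducible form, had 11.1, 11.6 and 11.4 FPKM in DMSO, 7.56, 7.61 and 7.58 FPKM at 25 nM and 5.76, 6.25 and 5.404 FPKM at 50 nM. It stepped down without overlap, by 0.58 at 25 nM and 0.96 at 50 nM. PFKFB2, the heart-type form, had 4.17, 4.32 and 3.998 FPKM in DMSO, 3.704, 3.703 and 2.496 FPKM at 25 nM and 4.19, 3.76 and 3.71 FPKM at 50 nM. It was the only tested member that passed no test in the 3 comparisons, with values of -0.35, -0.10 and 0.25. Without replicate 1 or 2 at 25 nM its value there was -0.44 and passed, and without replicate 3 it was -0.16 and did not. The value of 50 nM against 25 nM was 0.07 without replicate 3 at 25 nM. YOD1 on the opposite strand overlaps PFKFB2 and held 65.1% as many fragments in DMSO. PFKFB2 took 2.64% of the family FPKM in DMSO, 2.51% at 25 nM and 4.71% at 50 nM, and PFKFB3 90.2%, 91.6% and 88.3%.

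The lower, ATP-yielding steps hold the most abundant members, and several of them had opposite signs at the 2 doses. At 25 nM 2 of the 8 members fell and 2 rose, near the 25.8% and 26.3% of all genes. At 50 nM 7 fell against DMSO, where 31.5% of all genes fell. GAPDH, which oxidises glyceraldehyde 3-phosphate and often serves as a loading control, had 1595, 1561 and 1532 FPKM in DMSO, 1599, 1586 and 1692 FPKM at 25 nM and 1004, 1116 and 1071 FPKM at 50 nM. The first pair of groups overlapped and the 50 nM libraries all lay lower. Its log2 fold change was 0.06 at 25 nM, which did not pass, and -0.56 ± 0.05 at 50 nM (SE; adjusted p = 2.97e-05). GAPDH ranked 11 of all tested genes by FPKM in DMSO, and its 19 listed pseudogene copies together held 0.297% of its FPKM. TPI1, which interconverts the triose phosphates, had 556, 542 and 532 FPKM in DMSO, 595, 602 and 689 FPKM at 25 nM and 437, 476 and 467 FPKM at 50 nM. It rose by 0.21 at 25 nM (adjusted p = 0.0217), by 0.14 without replicate 3, and fell by 0.24 at 50 nM (adjusted p = 0.00923). The call at 25 nM was lost without DMSO replicate 2 or 3, with adjusted p of 0.0631 and 0.0746, or with the gene length trend removed, at 0.11, and reversed to -0.12 under quantile normalization. The call of TPI1 at 50 nM was lost with non-mitochondrial scaling, at -0.12 (adjusted p = 0.0837).

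Phosphoglycerate kinase, PGK1, makes the first ATP of the pathway and had the lowest fold change of the lower steps at 50 nM. It had 167, 160.2 and 159.8 FPKM in DMSO, 142, 143 and 143 FPKM at 25 nM and 83.1, 92.7 and 88.3 FPKM at 50 nM. Its groups stepped down without overlap, with log2 fold changes of -0.19 ± 0.05 at 25 nM (SE; adjusted p = 0.0076) and -0.88 ± 0.05 at 50 nM (adjusted p = 1.22e-06). PGAM1, the mutase of the next step, had 166, 158 and 160.2 FPKM in DMSO, 144, 147 and 159 FPKM at 25 nM and 111, 116 and 109 FPKM at 50 nM. At 25 nM, -0.11 did not pass with all libraries, while -0.15 without replicate 3 did (adjusted p = 0.0108), and at 50 nM PGAM1 fell by 0.53. BPGM, which makes 2,3-bisphosphoglycerate, averaged 8.39 ± 0.19 FPKM in DMSO, 10.5 ± 0.17 FPKM at 25 nM and 8.83 ± 0.53 FPKM at 50 nM (SD, n = 3 each). It rose by 0.32 at 25 nM (adjusted p = 0.000648), and its 0.07 at 50 nM did not pass.

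Enolase dehydrates 2-phosphoglycerate, and its common form ENO1 outnumbered the neuronal form ENO2. ENO1 had 620.2, 581 and 583 FPKM in DMSO, 639, 632 and 713 FPKM at 25 nM and 479.7, 505 and 461 FPKM at 50 nM. All 25 nM libraries lay above DMSO, at 0.15 with an adjusted p of 0.0613 that missed the threshold, and all 50 nM libraries lay below it, a fall of 0.30 (adjusted p = 0.00204). ENO2 had 134, 129.7 and 125 FPKM in DMSO, 111, 106 and 110.5 FPKM at 25 nM and 85.9, 86.3 and 88.6 FPKM at 50 nM. It stepped down, by 0.25 at 25 nM and 0.58 at 50 nM. ENO2 thus held 17.9% of the summed FPKM of ENO1 and ENO2 in DMSO, 14.2% at 25 nM and 15.3% at 50 nM. PKM, the pyruvate kinase of non-liver tissues, averaged 385 ± 10.7 FPKM in DMSO, 389 ± 25.6 FPKM at 25 nM and 307 ± 8.7 FPKM at 50 nM (SD, n = 3 each). It did not pass at 25 nM and fell by 0.33 at 50 nM. With the gene length trend removed its 25 nM value was 0.18 and passed (adjusted p = 0.0465). Under quantile normalization the 25 nM value was -0.31 and passed as a fall.

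Lactate dehydrogenase subunits went separate ways at 25 nM. LDHA, the subunit that favours lactate formation (chromosome 11, 18394388-18408425), had 563, 537 and 551 FPKM in DMSO, 437, 444 and 467 FPKM at 25 nM and 296, 328 and 334 FPKM at 50 nM. Its libraries stepped down without overlap, with log2 fold changes of -0.29 ± 0.06 at 25 nM (SE; adjusted p = 0.00198) and -0.79 ± 0.06 at 50 nM (adjusted p = 4.89e-06). LDHB, the subunit of oxidative tissues, had 388, 376 and 386 FPKM in DMSO, 465, 464 and 509.6 FPKM at 25 nM and 375, 402 and 402 FPKM at 50 nM. It rose by 0.32 at 25 nM (adjusted p = 0.000797), a call that quantile normalization ended, and at 50 nM 0.04 did not pass, with libraries that overlapped DMSO. LDHB held 41.0% of the summed FPKM of LDHA and LDHB in DMSO, 51.6% at 25 nM and 55.2% at 50 nM. The sum averaged 934 FPKM in DMSO, 929 FPKM at 25 nM and 712 FPKM at 50 nM. The log2 ratio of LDHB to LDHA was 0.30 ± 0.04 at 50 nM against -0.52 ± 0.01 in DMSO, and 0.09 ± 0.03 at 25 nM (SD, n = 3 each), without overlap between the groups. Each pair of groups gave the smallest exact two-sided permutation p of 6 libraries, 0.1, which is 0.156 after adjustment over 39 ratio comparisons.

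**Figure D3:**
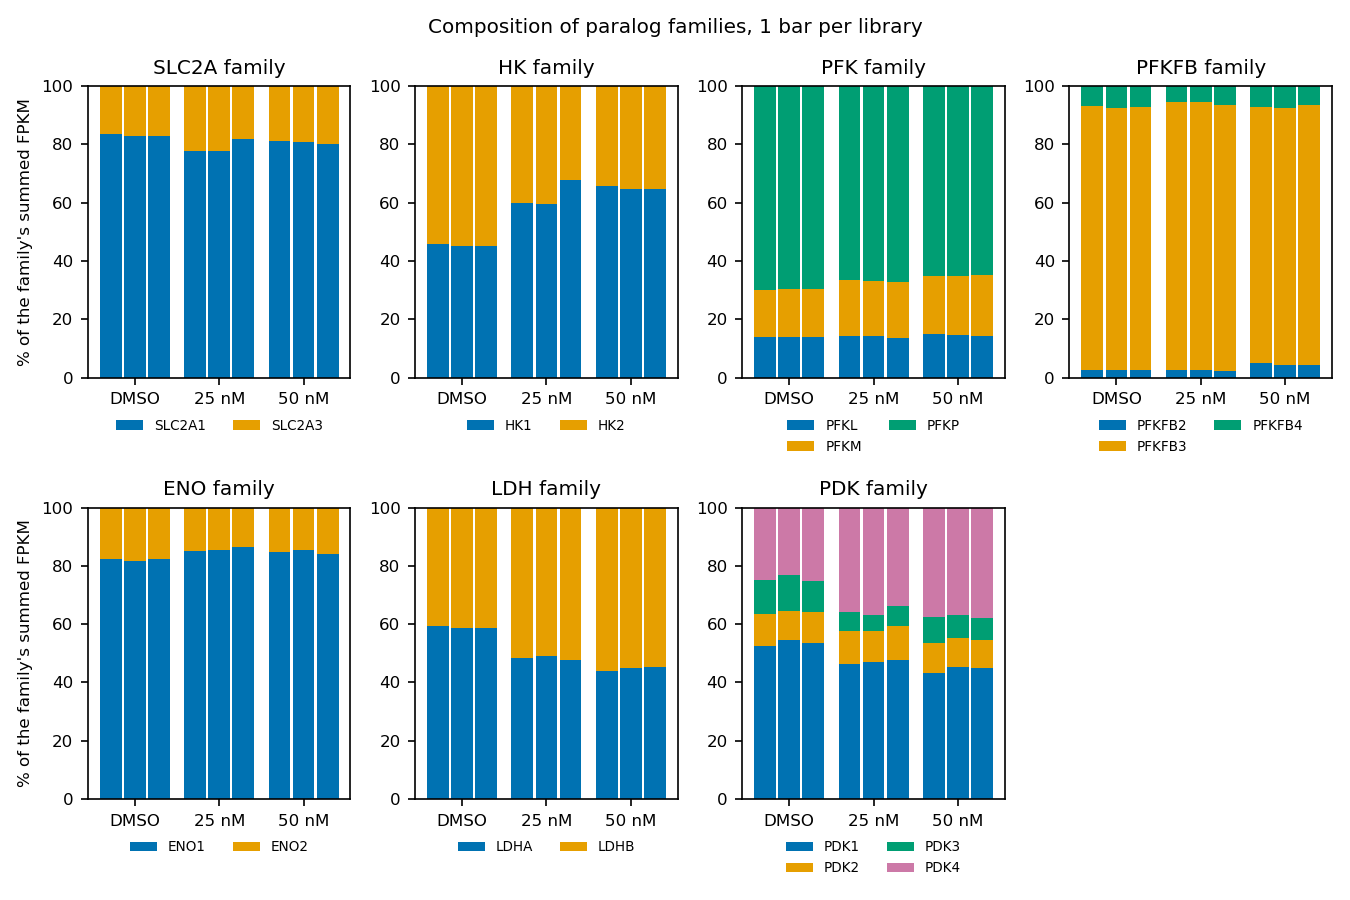
Share of each paralog in the summed FPKM of the listed members of its family (percent), 1 bar per library, for DMSO, 25 nM and 50 nM. HKDC1 and ENO3 are outside the list and not counted. HK1 and LDHB take larger shares in all drug libraries than in DMSO, and PDK4 likewise among the kinases.

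The exporter SLC16A1, or MCT1, fell at both doses. It had 41.5, 40.99 and 42.1 FPKM in DMSO, 27.9, 30.3 and 29.8 FPKM at 25 nM and 23.6, 24.5 and 26.02 FPKM at 50 nM. The groups did not overlap, with log2 fold changes of -0.50 ± 0.05 at 25 nM (SE; adjusted p = 5.37e-05) and -0.75 ± 0.05 at 50 nM (adjusted p = 3e-06). SLC16A3, or MCT4, the low-affinity exporter of highly glycolytic cells, had 0.398, 0.473 and 0.385 FPKM in DMSO, 0.333, 0.301 and 0.332 FPKM at 25 nM and 0.731, 0.7198 and 0.266 FPKM at 50 nM. Replicate 3 at 50 nM lay below all DMSO libraries and the other 50 nM libraries above them, and the neighbouring CSNK1D on the opposite strand holds far more fragments, so no direction was read.

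Pyruvate dehydrogenase kinases inactivate the enzyme that feeds pyruvate into the citric acid cycle. Of the 4, 3 fell at 50 nM, where 31.5% of all genes fell. PDK1, a classical HIF target, had 11.6, 11.6 and 11.6 FPKM in DMSO, 8.54, 8.81 and 7.896 FPKM at 25 nM and 5.53, 6.204 and 6.48 FPKM at 50 nM. It fell in separated steps, by 0.46 at 25 nM (adjusted p = 0.000403) and 0.93 at 50 nM (adjusted p = 4.7e-06). With the gene length trend removed, the PDK1 value at 25 nM was -0.15 and did not pass (adjusted p = 0.0938). PDK3, the isoform least inhibited by pyruvate, had 2.58, 2.58 and 2.33 FPKM in DMSO, 1.17, 1.06 and 1.11 FPKM at 25 nM and 1.15, 1.101 and 1.08 FPKM at 50 nM. The drug groups overlapped each other and lay far below DMSO, with log2 fold changes of -1.09 ± 0.08 at 25 nM and -1.10 ± 0.08 at 50 nM (SE). The 50 nM against 25 nM value of PDK3 was -0.01 ± 0.08 (adjusted p = 0.969). PDK2 had 2.41, 2.13 and 2.29 FPKM in DMSO, 2.105, 2.01 and 1.93 FPKM at 25 nM and 1.33, 1.33 and 1.42 FPKM at 50 nM. Its -0.17 at 25 nM did not pass, and it fell by 0.70 at 50 nM. SAMD14 on the opposite strand overlaps PDK2 and held 170.4% as many fragments in DMSO. PDK4, an isoform of fasting and fatty acid use, had 5.501, 4.93 and 5.46 FPKM in DMSO, 6.65, 6.92 and 5.58 FPKM at 25 nM and 4.79, 5.01 and 5.47 FPKM at 50 nM. It rose by 0.26 at 25 nM (adjusted p = 0.0334), a call lost under 10 of the 20 alternatives. Among these were total-fragment scaling and leaving out any single DMSO library or replicate 1 or 2 at 25 nM. PDK4 held 24.4% of the summed PDK FPKM in DMSO, 35.5% at 25 nM and 37.3% at 50 nM. The log2 ratio of PDK4 to PDK1 was 0.88 higher at 50 nM than in DMSO and 0.73 higher at 25 nM than in DMSO, without overlap (exact permutation p = 0.1 each).

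All 4 glycogen members fell at both doses, where 25.8% of all genes fell at 25 nM and 31.5% at 50 nM. PPP1R3C fell most among the 31 at 50 nM. PPP1R3C encodes the targeting subunit (PTG) that brings protein phosphatase 1 to glycogen and so activates glycogen synthase (chromosome 10, 91628442-91633054). It had 65.8, 63.5 and 65.7 FPKM in DMSO, 30.02, 31.9 and 24.9 FPKM at 25 nM and 9.104, 11.8 and 11.3 FPKM at 50 nM. Each group lay wholly below the one before it, and the mean at 50 nM was 16.5% of DMSO. The log2 fold change was -1.17 ± 0.11 at 25 nM (SE; adjusted p = 5.35e-05), -1.07 without replicate 3, and -2.59 ± 0.11 at 50 nM (adjusted p = 5.65e-07). GYS1, the muscle-type glycogen synthase that adds the glucose units, had 17.8, 16.7 and 17.1 FPKM in DMSO, 12.9, 13.8 and 14.9 FPKM at 25 nM and 9.87, 11.1 and 9.94 FPKM at 50 nM. GBE1, the branching enzyme, had 17.8, 17.6 and 17.9 FPKM in DMSO, 12.7, 13.8 and 12.3 FPKM at 25 nM and 11.4, 11.5 and 11.3 FPKM at 50 nM. Both stepped down with no overlap, GYS1 by 0.31 at 25 nM and 0.74 at 50 nM, and GBE1 by 0.46 and 0.64 at these doses. The call of GBE1 between 50 nM and 25 nM, at -0.18, was lost with total-fragment scaling (-0.09), non-mitochondrial scaling (-0.06) and quantile normalization (-0.13). It was also lost when only these groups were fitted. PGM1 moves phosphate between glucose 1- and 6-phosphate at the entrance to glycogen, and had 24.02, 24.7 and 25.2 FPKM in DMSO, 20.97, 20.8 and 21.1 FPKM at 25 nM and 13.7, 15.5 and 14.9 FPKM at 50 nM. It fell by 0.23 at 25 nM and 0.74 at 50 nM, and ITGB3BP on the opposite strand overlaps it with 19.6% as many fragments in DMSO. Of all fragments, the 4 genes together took 0.0428% in DMSO libraries, 0.0278% in 25 nM libraries and 0.0198% in 50 nM libraries.

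Summed over all 33 members, recovered fragments made up 2.61%, 2.54% and 2.53% of the DMSO libraries, 2.42%, 2.41% and 2.51% of the 25 nM libraries and 1.84%, 1.96% and 1.86% of the 50 nM libraries. The 50 nM libraries lay below all others, and the means were 2.56 ± 0.05%, 2.45 ± 0.05% and 1.89 ± 0.06% from DMSO to 50 nM (SD, n = 3). The share of GAPDH alone was 0.464% in DMSO libraries, 0.473% in 25 nM libraries and 0.331% in 50 nM libraries. The lower steps with GAPDH took 1.36%, 1.38% and 1.06% in this order of dose, and the lactate genes 0.476%, 0.427% and 0.344%. The upper steps took 0.474%, 0.443% and 0.349% in the same order, and the PFKFB enzymes 0.0886%, 0.0718% and 0.0496%. These shares are of all fragments, the mitochondrially encoded ones included.

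**Figure D4:**
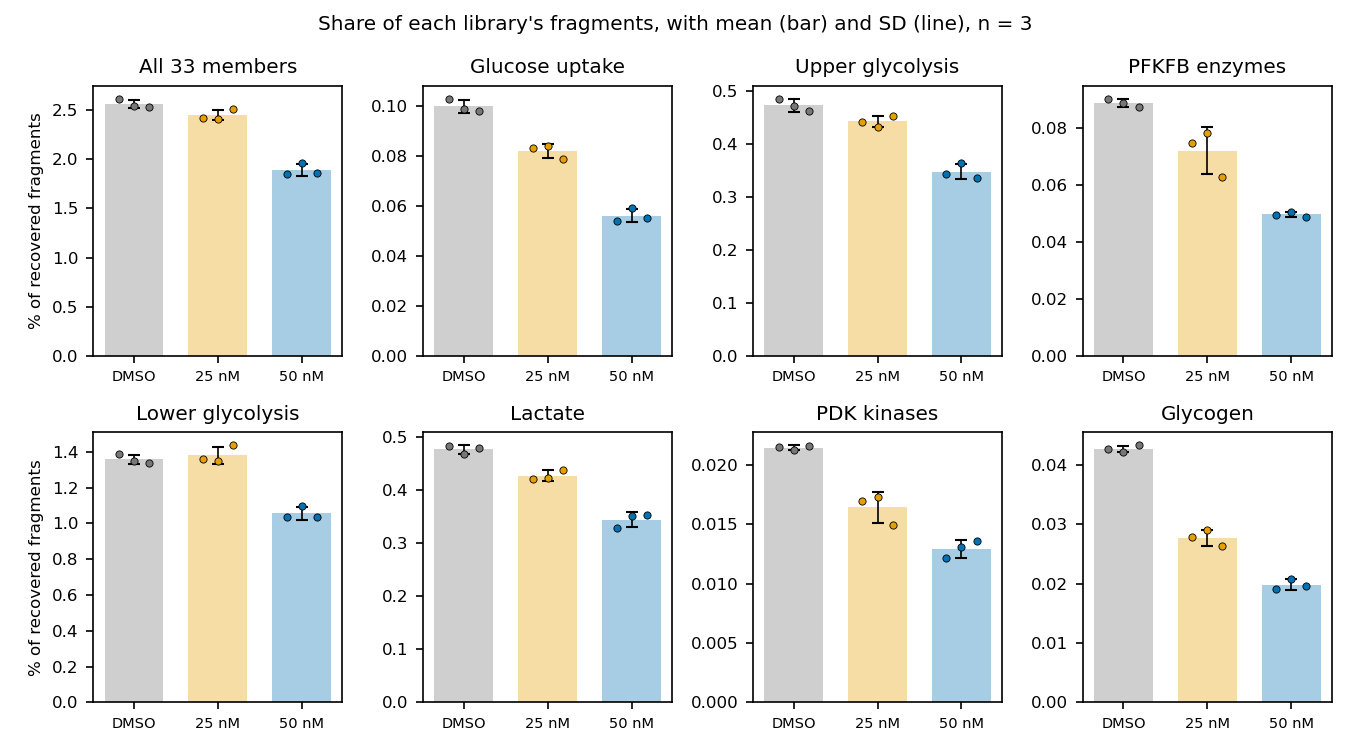
Share of recovered fragments (percent) held by the members of each role, with 1 point per library, bars for means and lines for the SD (n = 3), in DMSO, 25 nM and 50 nM. The summed share of all members lies at 2.53% to 2.61% in DMSO, 2.41% to 2.51% at 25 nM and 1.84% to 1.96% at 50 nM.

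Paralog balance was compared in 13 pairs and 3 comparisons, 39 in all. Of these, 25 did not overlap between the groups, 10 for 25 nM against DMSO, 9 for 50 nM against DMSO and 6 for 50 nM against 25 nM, each of 13. Levels of single genes did not overlap in 62.6%, 70.4% and 45.4% of all genes in these comparisons, so the counts lie near that background. The smallest adjusted p was 0.156, so none can pass in this design. The log2 ratio of HK1 to HK2 was 0.89 ± 0.04 at 50 nM against -0.27 ± 0.03 in DMSO, and 0.74 ± 0.30 at 25 nM (SD, n = 3 each). In this ratio the drug groups overlapped each other. The ratio of PFKFB2 to PFKFB3 was -4.23 ± 0.13 at 50 nM, against -5.20 ± 0.19 at 25 nM and -5.09 ± 0.06 in DMSO. It was the pair that changed most between 50 nM and 25 nM without overlap, by 0.97. The ratio of ENO2 to ENO1 went the other way, at -2.47 ± 0.08 at 50 nM and -2.60 ± 0.08 at 25 nM against -2.20 ± 0.03 in DMSO.

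Genes next to these pathways gave mixed counts. Of 3 tested isozymes of glycolysis outside the list, 2 rose at either dose, against backgrounds of 26.3% and 29.2%. ENO3, the muscle enolase, averaged 12.2 ± 0.45 FPKM at 50 nM against 6.46 ± 0.156 FPKM in DMSO, a log2 fold change of 0.91, and overlaps PFN1 on the opposite strand. ADPGK, a glucokinase that uses ADP, averaged 12.6 FPKM at 50 nM against 9.26 FPKM in DMSO and rose by 0.44. Of 18 other glycogen genes, 4 rose and 7 fell at 25 nM, against 26.3% and 25.8% of all genes. At 50 nM 3 rose and 10 fell, against 29.2% and 31.5%. UGP2, which makes the UDP-glucose used by glycogen synthase, fell by 0.77 at 50 nM, and GYG2, a primer of glycogen chains, fell by 0.99. Phosphorylase kinase promotes glycogen breakdown. Its catalytic subunit PHKG2 averaged 5.23 FPKM at 50 nM against 2.06 FPKM in DMSO and rose by 1.30 on the log2 scale. The other, PHKG1, averaged 1.10 FPKM at 50 nM against 0.39 FPKM in DMSO, a rise of 1.28. Every DMSO library of PHKG1 lay below the 0.5 FPKM of the filter. It entered the test through its drug libraries, so the filter favoured a rise. PHKG2 and PHKG1 each overlap a gene on the opposite strand. Of the other subunits, PHKB fell by 0.41 and PHKA1 by 0.25 at 50 nM, and PHKA2 rose by 0.29. Of 7 other hexose transporters, 3 rose and 1 fell at 25 nM, and 3 rose and 2 fell at 50 nM, against the same backgrounds. SLC2A11 rose by 0.81 and SLC2A8 by 0.68 at 50 nM, while SLC2A12 fell by 0.80 and SLC2A13, a myo-inositol carrier, by 0.74. Of 6 other genes of monocarboxylate transport, 2 fell and 1 rose at 25 nM and 4 fell at 50 nM, against the same backgrounds. At 50 nM SLC16A7, or MCT2, was at -0.83 and SLC16A4 at -0.25.

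Among 6 regulators known to act on these genes, 2 rose and 4 fell at 25 nM, and 2 rose and 3 fell at 50 nM. Of all genes, 26.3% rose and 25.8% fell at 25 nM, and 29.2% rose and 31.5% fell at 50 nM. EPAS1, which encodes HIF-2α, had 37.5, 40.6 and 40.4 FPKM at 50 nM against 91.4, 87.1 and 87.3 FPKM in DMSO, and fell by 1.16. MYC, a transcription factor that drives many glycolytic genes, had 40.3, 44.8 and 41.1 FPKM at 50 nM against 78.2, 69.1 and 72.6 FPKM in DMSO, and fell by 0.80. HIF1A, which encodes HIF-1α, had 43.8, 43.8 and 44.7 FPKM at 50 nM against 29.04, 29.6 and 29.6 FPKM in DMSO, and rose by 0.58, with antisense genes on the opposite strand. TXNIP, a glucose-responsive brake on glucose uptake, had 9.06, 9.93 and 9.42 FPKM at 50 nM against 4.68, 5.08 and 5.595 FPKM in DMSO, and rose by 0.88. At 25 nM the same 4 genes gave log2 fold changes of -0.73, -0.32, 0.52 and 0.51 in this order, and all passed. HIF proteins are controlled mainly by degradation, which RNA levels do not show.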

How the data were processed

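RNA of 9 ACHN libraries was sequenced. The authors deposited FPKM for 30673 genes in a table named for read counts, and a log2 table of FPKM for the 18859 genes above 0 in every library, which gives symbols, positions and lengths. The build is hg38 per the submitters' processing notes. For aligner, counter, annotation, RNA selection and strandedness nothing is given in the sources used here. Deposited log2 values equal the log2 of the deposited FPKM within 0.005, and 0 columns belonged to other samples. FPKM times length was a whole multiple of a step in 100% of values, within 0.01, which gave whole fragments, 24365472 to 29245674 per library.

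The plan allowed for counts or FPKM, and the FPKM were tested with limma 3.58.1 in R 4.3.3 (eBayes, trend and robust options) on log2(FPKM + 0.1), with all 9 libraries in 1 fit and group as covariate. Fold changes on this scale understate those of low genes. The test took genes that reached 0.5 FPKM in 3 or more libraries, and Benjamini-Hochberg adjustment covered all 15541. Rose and fell mean an adjusted p under 0.05. For paralog ratios an exact permutation test, two-sided, used all 20 splits of 6 libraries; 0.1 is its smallest p. Motif matches were sought in RefSeq promoters on GRCh38.p14. The fit was tested on simulated data.

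The members and the lists were chosen with earlier results of these data known. Values of every library are given for members changed by at least 0.5 against DMSO or in opposite directions at the doses and for the paralog pairs. Further members were given them as well, after their values were seen. In neighbouring lists, up to 2 genes with the smallest p at 50 nM in each direction were named, with TXNIP, HIF1A and MYC. HKDC1, PHKA1, PHKA2 and PHKB were added after their values were seen. Genes that overlap another gene may hold its reads. Alternatives covered the pseudocount, the filter, scaling by total or non-mitochondrial fragments, quantile normalization, the groups fitted, gene length, the eBayes options, a replicate block and leaving out each library.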

Additional observations from a re-analysis of the deposited data

Results flagged for a closer look

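In 8 members the fold changes against DMSO had opposite signs at the 2 doses, and the difference between 50 nM and 25 nM itself passed the limma test over all genes. Some of the single fold changes did not pass on their own. The share of all genes that met both conditions was not counted. Between the doses, 18.8% of all genes were lower at 50 nM. The log2 fold change of 50 nM against 25 nM was -0.74 for SLC2A3, -0.48 for GPI, -0.53 for ALDOA, -0.45 for TPI1, -0.61 for GAPDH, -0.46 for ENO1, -0.34 for PKM and -0.32 for PDK4. Several 25 nM values against DMSO lay near 0. With total-fragment scaling the 25 nM values of SLC2A3 and PKM were -0.0111 and -0.0125, the same sign as at 50 nM, and SLC2A3 was also below 0 without replicate 1 or 2 at 25 nM. Under quantile normalization the 25 nM values against DMSO were -0.05 for SLC2A3, -0.25 for ALDOA and -0.12 for TPI1. They were -0.39 for GAPDH, -0.16 for ENO1 and -0.31 for PKM. Of these, all but SLC2A3 passed as falls, while GPI (0.11) and PDK4 (0.31) stayed above 0. With the gene length trend removed, GAPDH was at -0.02 at 25 nM. GPI and TPI1 were the 2 whose calls against DMSO themselves went in opposite directions in the main fit. GPI lost its 50 nM call with the length trend removed, and TPI1 with non-mitochondrial scaling. Replicate 3 at 25 nM was the highest of its group in GPI, ALDOA, TPI1, GAPDH, ENO1 and PKM and the lowest in SLC2A3 and PDK4. The call of PDK4 between the doses was lost without replicate 1 or 2 of either drug group. Without replicate 3 at 25 nM, the log2 fold change of 25 nM against DMSO was 0.13 for SLC2A3, 0.17 for GPI, 0.0034 for ALDOA, 0.14 for TPI1, 0.03 for GAPDH, 0.10 for ENO1, -0.0378 for PKM and 0.35 for PDK4. In PKM both values against DMSO were then below 0. The value of 50 nM against 25 nM without it stayed below 0 in all 8, from -0.85 for SLC2A3 to -0.29 for PKM.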

How the results depend on the processing

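The 93 log2 fold changes of members were recomputed under 20 alternatives each, 1860 values in all: 1750 kept direction and side of the threshold, 59 lost a call, 21 gained one and 30 changed sign. Of the sign changes, 7 involved a call, all under quantile normalization: at 25 nM to -0.25 for ALDOA, -0.12 for TPI1, -0.39 for GAPDH, -0.16 for ENO1, -0.31 for PKM and -0.0020 for LDHB, and at 50 nM to -0.0897 for LDHB. The other 23 were of values called in neither fit. Against DMSO at 25 nM, these were SLC2A3 at -0.0111 and PKM at -0.0125 with total fragments, SLC2A3 at -0.0473 with quantile normalization, and PFKL at 0.0956 and GAPDH at -0.0242 with the length trend removed. Against DMSO at 50 nM, they were PFKFB2 at 0.0197 and PDK4 at 0.0640 with non-mitochondrial fragments, PDK4 at 0.0137 with total fragments, and PFKFB2 at 0.0758, BPGM at -0.0376 and LDHB at -0.0284 with the length trend removed. Between the doses, they were PFKM at 0.0058 and PDK3 at 0.0854 with total fragments, PFKM at 0.0295 and PDK3 at 0.108 with non-mitochondrial fragments, PFKM at 0.0604 with quantile normalization and PDK3 at 0.0031 with the length trend removed. With a library left out, SLC2A3 and PKM at 25 nM ranged from -0.0432 to 0.129 and from -0.0378 to 0.0473, PFKM at 50 nM from -0.0028 to 0.0162 and PDK3 between the doses from -0.0361 to 0.0287. The cause was not tested in any of these. Members higher at 25 nM numbered 3 to 7, against 6. Members changed numbered 19 to 25 at 25 nM, 25 to 28 at 50 nM and 23 to 28 between the doses. With the replicate block they were 21, 26 and 27, and it moved no count of calls by over 1.5 times. Deviations from the group mean correlated at -0.05 to 0.08 between same-numbered libraries. No shared replicate effect was seen, but with 3 libraries a group this cannot tell if the cultures were paired. Genes changed between 50 nM and 25 nM were 5205, and 3441 to 5829 with a library left out, the lowest without 50 nM replicate 1. Scaling by non-mitochondrial fragments moved the median of all genes by 0.12 at 50 nM against either group. With it 5843 genes rose and 3583 fell at 50 nM against DMSO, where the deposited scaling gave 4540 and 4901, and 3464 rose and 1112 fell between the doses, against 2288 and 2917. At 50 nM BPGM, LDHB and PFKM then rose, the first 2 also with total-fragment scaling. PFKM also rose at 50 nM under quantile normalization (0.10) and with the length trend removed (0.11), and BPGM without 50 nM replicate 3 (0.12).

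Limits are 3 libraries a group, an unknown treatment time, and a correlation over genes of fold change with length (Spearman -0.37 at 25 nM and -0.25 at 50 nM against DMSO).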

Other observations

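Genes of the pentose phosphate pathway, which branches from glycolysis to make NADPH and ribose, rose in 6 of 8 at 25 nM, where 26.3% of all tested genes rose. At 50 nM 3 of the 8 rose and 1 fell, against backgrounds of 29.2% and 31.5%. RPIA, which makes ribose 5-phosphate, averaged 22.1 ± 0.408 FPKM at 50 nM and 16.8 ± 0.516 FPKM in DMSO (SD, n = 3 each), and 22.9 FPKM at 25 nM. TALDO1, the transaldolase, averaged 40.5 FPKM at 50 nM and 32.9 FPKM in DMSO. TIGAR, a phosphatase that lowers fructose 2,6-bisphosphate, fell by 0.15 at 50 nM.

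Of 9 genes that carry pyruvate into mitochondria or form pyruvate dehydrogenase and its phosphatases, 3 rose and 2 fell at 25 nM, close to the 26.3% and 25.8% of all genes, and 1 rose and 5 fell at 50 nM, against 29.2% and 31.5%. PDHA1, the catalytic subunit, averaged 13.8 FPKM at 50 nM and 10.7 FPKM in DMSO. The phosphatases that reactivate the complex fell, PDP1 by 0.63 and PDP2 by 0.45 at 50 nM and by 0.88 and 0.82 at 25 nM. Of 3 tested genes of gluconeogenesis 2 rose at 25 nM and 1 at 50 nM, against 26.3% and 29.2% of all genes. The 1 at 50 nM was G6PC3, a glucose 6-phosphatase, which rose by 0.29.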
